A study of Mus musculus with 4 samples.

Results

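In mouse erythroleukemia (MEL) cells, 500 anti-Myb peaks lay beside an anti-GFP peak without touching it. They were chosen by distance: the peak overlapped no anti-GFP peak, and the nearest anti-GFP centre on the same chromosome was no more than 1000 bp away. They made up 14.7% of the 3410 anti-Myb peaks (exact 95% binomial interval 13.5% to 15.9%). Their nearest anti-GFP peaks, the partners, were 494 of the 7327 anti-GFP peaks. The other anti-Myb peaks were 607 that overlapped an anti-GFP peak (17.8%), 485 with an anti-GFP centre more than 1 kb and up to 10 kb away (14.2%), and 1818 farther away (53.3%).

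The data came from CUT&RUN, in which a nuclease tethered to an antibody cuts the DNA beside the bound protein, so that short fragments pile up there. Each of 2 libraries gave 1 peak list: one made with a Sigma anti-GFP antibody in MEL cells labelled Myb_GFP, the other with an Abcam anti-Myb antibody in MEL cells without that label. Myb_GFP is taken to mean MYB fused to GFP. The labels do not explain the name, nor do they say whether such cells are a clone or keep an untagged copy. The control libraries, anti-GFP in unlabelled MEL cells and an IgRab library with no antibody, were not analysed here, so the peaks have no background level from control cells. With 1 library per group there is no replicate, and a peak in 1 list only can differ by antibody, by cells or by library, which cannot be told apart.

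MYB is needed by blood progenitors, in which it controls transcription. It binds a short DNA recognition element through tandem helix-turn-helix repeats and recruits the coactivators CBP and p300 through its activation domain. Its level is high in immature erythroid cells and falls as they mature, and MEL cells are blocked at such an immature stage. A tag antibody and an antibody to the protein itself read the same factor through different parts of it. A centre here is the midpoint of a listed peak, and peak width was constant within a list (anti-GFP 337 bp, anti-Myb 313 bp). The lower limit of the distance is therefore set by peaks that meet edge to edge.

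The neighbouring centres gathered at a middle distance and did not thin out steadily from the overlap limit. The median distance was 483 bp (exact 95% interval of the median 474 to 492 bp), with quartiles at 426 and 567 bp and a range of 326 to 995 bp. This distance belongs to the rule that chose the members, so its distribution is a description. Between the facing edges of the peaks of a pair, a median of 158 bp was covered by neither peak (149 to 167 bp). A pair together spanned a median of 808 bp.

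Counted in bins of 50 bp, 34 members were less than 350 bp from their partner, 56 were 350 to 400 bp away and 84 were 400 to 450 bp away. The first of these counts covers only part of a bin, because the rule starts at the overlap limit. It is therefore not comparable with the full bins. In bins of 25 bp, the same 34 members were followed by 21, 35 and 30, so the counts did not climb steadily from that limit. The fullest bin, from 450 to 500 bp, held 111 members (22.2%). The next bins held 67, 36, 28, 22 and 22 members up to 750 bp, and the 5 bins beyond that held 10 or fewer each. The range from 400 to 550 bp took in 262 of 500 members (52.4%, exact 95% interval 47.9% to 56.9%). At the far end only 20 members (4.0%) were 850 bp or more from their partner.

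Seen over the whole anti-Myb list, the neighbouring distances formed a separate maximum beyond the overlapping ones. Overlapping pairs had a median centre distance of 143 bp, and the 50 bp bin from 150 to 200 bp held 122 peaks. The bin from 250 to 300 bp held 47 peaks. From 450 to 500 bp the count was again 111. Beyond 1 kb no 50 bp bin up to 2 kb held more than 9. Taking every combination of an anti-Myb and an anti-GFP peak in place of the nearest one gave 117 in the bin from 450 to 500 bp, so few pairs there had a closer alternative.

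**Figure D1:**
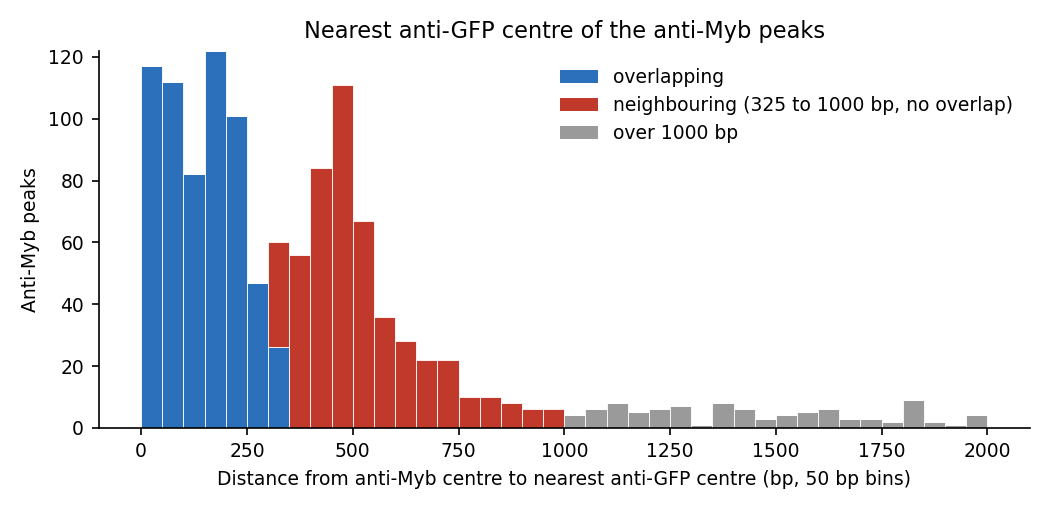
Distance in bp from each anti-Myb centre to the nearest anti-GFP centre, in 50 bp bins up to 2000 bp. Bars count anti-Myb peaks, coloured by whether the peak overlaps, neighbours or lies farther than 1000 bp from the anti-GFP peak. The red bars peak at 111 between 450 and 500 bp, after a low of 47 between 250 and 300 bp.

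Peaks of a single list kept a wider distance from each other than these pairs did. The smallest distance between adjacent centres was 637 bp within the anti-GFP list and 568 bp within the anti-Myb list. Only adjacent centres less than 2 kb apart were binned. The fullest 100 bp bin was 700 to 800 bp in the anti-GFP list (82 pairs). In the anti-Myb list it was 800 to 900 bp (22 pairs). Both are small parts of lists of 7327 and 3410 peaks. Within 1 kb there were 219 adjacent pairs in the anti-GFP list and 45 in the anti-Myb list. Both lists together therefore held centres at distances from each other that did not occur within either list. Whether a minimum distance was set when peaks were called is not given in the sources used here.

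The members lay equally often on either side of their partner. The rule used the distance without its sign, so the side is independent of it. The anti-Myb centre had the lower coordinate in 250 of 500 pairs (50%, exact 95% interval 45.5% to 54.5%). Overlapping pairs gave 302 of 607 (49.8%). Among members less than 550 bp from their partner the count was 178 of 352 (50.6%), and among those farther away it was 72 of 148 (48.6%).

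Distances were alike on both sides as well. The median was 490 bp for members at the lower coordinate (477 to 499 bp) and 478 bp for those at the higher coordinate (463 to 493 bp), and these intervals overlap. Single bins were less even. From 400 to 450 bp, 32 members were on the lower and 52 on the higher side. From 450 to 500 bp, the counts were 63 and 48. No test was made of these bins, which were compared after their values were seen. Coordinates follow the reference strand and not the direction of a gene, since no gene was assigned to a peak here.

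**Figure D2:**
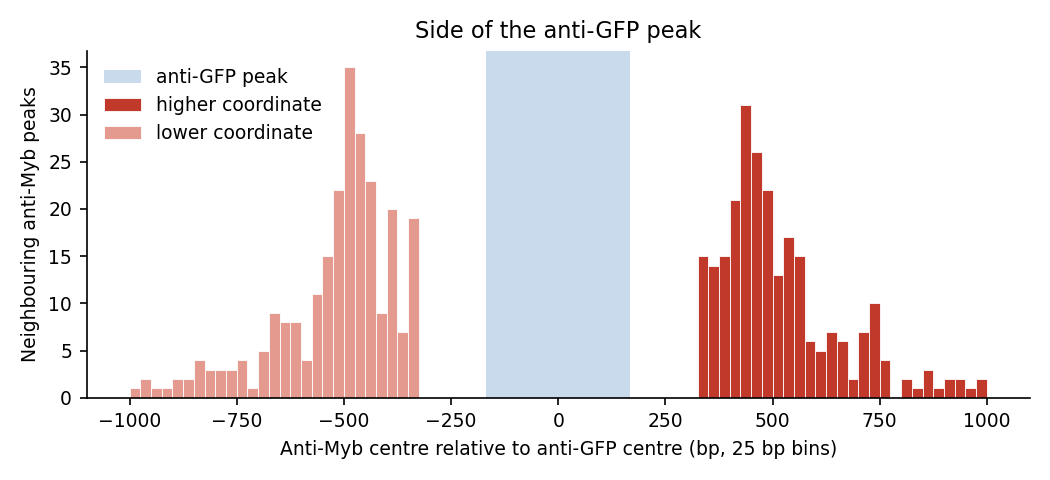
Position of the 500 neighbouring anti-Myb centres relative to the anti-GFP centre of their pair, in 25 bp bins, with the width of the anti-GFP peak shaded. Members at the lower coordinate (250) are left of 0 and members at the higher coordinate (250) right of 0, and both sides crowd between 400 and 550 bp.

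Nearly all pairs were exclusive. Of the 494 partners, 488 had 1 member and 6 had 2. In 478 of the 500 pairs the anti-Myb peak was also the nearest anti-Myb peak of its partner. The remaining 22 were made up of 16 members whose partner was overlapped by another anti-Myb peak and 1 member at each of the 6 partners with 2.

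At the 6 anti-GFP peaks with 2 members, the anti-Myb peaks lay on opposite sides in all 6. No 2 centres of the anti-Myb list were closer than 568 bp, which leaves little room for both on 1 side. One such anti-GFP peak on chromosome 16 (92801451 to 92801787, row 72 of its list) had anti-Myb centres 383 bp below and 558 bp above it. Another on chromosome 17 (48548441 to 48548777, row 232) had them 475 and 634 bp away. The anti-GFP peak on chromosome 5 at 139865075 to 139865411 had the tightest arrangement, with 490 bp below and 382 bp above, which put its anti-Myb centres 872 bp apart. The widest was on chromosome X at 165544978 to 165545314, with 803 and 548 bp. The other two were on chromosome 6 at 149256909 to 149257245, with 482 and 666 bp, and on chromosome 9 at 44150955 to 44151291, with 580 and 512 bp. Of these 12 distances, none was under 382 bp, and 5 fell between 400 and 550 bp.

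In the reverse arrangement, 13 members lay between 2 anti-GFP peaks, each with its centre within 1 kb and on opposite sides in all 13. No 2 anti-GFP centres were closer than 637 bp, so the opposite sides were nearly fixed by that spacing. Their nearer distances ran from 326 to 474 bp and their farther distances from 416 to 969 bp. The 5 named here have early rows in either list and were picked after their values were seen. On chromosome 13 the anti-Myb peak at 59329640 to 59329952, row 19, had anti-GFP centres 417 bp below and 467 bp above it. The anti-Myb peak on chromosome 5 at 149708889 to 149709201, row 43, had its anti-GFP centres 332 and 416 bp away, 748 bp from each other. A further one, on chromosome 10 at 79806919 to 79807231 (row 64), had them 465 and 598 bp away. On chromosome 8 the anti-Myb peak at 72356244 to 72356556 stood near the end of its list, at row 3345, while its anti-GFP neighbours stood at rows 84 and 187, 347 and 482 bp away. The anti-Myb peak on chromosome 19 at 42055674 to 42055986, row 267, had its anti-GFP centres 415 and 462 bp away.

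At 16 partners an overlapping anti-Myb peak was present in addition to the neighbour. The neighbour was on the opposite side from the overlapping peak at 14 of them. Neighbours there were 433 to 984 bp from the anti-GFP centre, with a median of 715 bp. The neighbour and the overlapping peak were 568 to 1083 bp apart, and 568 bp was the smallest distance in the anti-Myb list. That spacing limits how near and on which side such a neighbour can be listed, so nothing is read from the side or the distance here. The neighbour stood later in the anti-Myb list than the overlapping peak at 9 of the 16.

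The position of the members in each list was the other measure that the rule did not use. All peaks had a score of 1, so the row order of the file served as the rank, given here as the row number in percent of all rows. The sort key of the rows is not stated, and a low percentage is an early row and nothing more. The median member stood 47.3% of the way down the anti-Myb list (exact 95% interval 42.3% to 52.3%). The median was 42.5% for overlapping anti-Myb peaks (38.8% to 45.6%), 47.8% for those at 1 to 10 kb (43.0% to 51.3%) and 54.6% for those beyond 10 kb (52.2% to 56.8%). The members' interval overlapped those of the overlapping and the 1 to 10 kb peaks, and touched that of the peaks beyond 10 kb only between 52.2% and 52.3%. No test was made, because peaks of 1 library are not replicates.

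Their anti-GFP partners were found mostly in the earlier rows of their own list. The median partner was 33.5% of the way down (28.4% to 36.9%), close to the 31.8% of anti-GFP peaks that overlapped an anti-Myb peak (28.5% to 35.1%). Anti-GFP peaks whose nearest anti-Myb centre was 1 to 10 kb away had a median of 35.3% (31.3% to 39.9%), and those with none within 10 kb 54.6% (53.3% to 55.9%). The partner stood earlier in its list than the member did in 293 of 500 pairs (58.6%, 54.1% to 63.0%), and the overlapping pairs gave 344 of 607 (56.7%, 52.6% to 60.7%).

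At the start and the end of the anti-Myb list, the shares of neighbouring peaks were close to each other, while those of overlapping peaks were far apart. In the first 10% of rows, 53 of 341 peaks were neighbours (15.5%, 11.9% to 19.8%) and 103 overlapped (30.2%, 25.4% to 35.4%). In the last 10%, 45 of 341 were neighbours (13.2%, 9.79% to 17.3%) and 37 overlapped (10.9%, 7.76% to 14.6%). Of all anti-Myb peaks that did either, neighbours made up 34.0% in the first 10% (26.6% to 42.0%), between 45.1% and 48.6% in the 4 stretches in between, and 54.9% in the last 10% (43.5% to 65.9%).

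In the anti-GFP list both kinds were less frequent among the last rows than among the first, with intervals that did not overlap. Partners of neighbouring peaks made up 97 of the first 732 rows (13.3%, 10.9% to 15.9%) and 29 of the last 733 (3.96%, 2.67% to 5.63%). Peaks that overlapped an anti-Myb peak made up 20.2% (17.4% to 23.3%) and 3.41% (2.22% to 4.99%) of the same rows. Both members of a pair were in the first 10% of their lists in 18 neighbouring pairs (3.6%, 2.15% to 5.63%) and 45 overlapping pairs (7.41%, 5.46% to 9.79%). Across the 500 pairs the list positions of the partners had a Pearson's r of 0.18 and a Spearman's rho of 0.19, against 0.23 and 0.24 over the 607 overlapping pairs. These describe peaks that share 2 libraries, and no p-value is given.

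**Figure D3:**
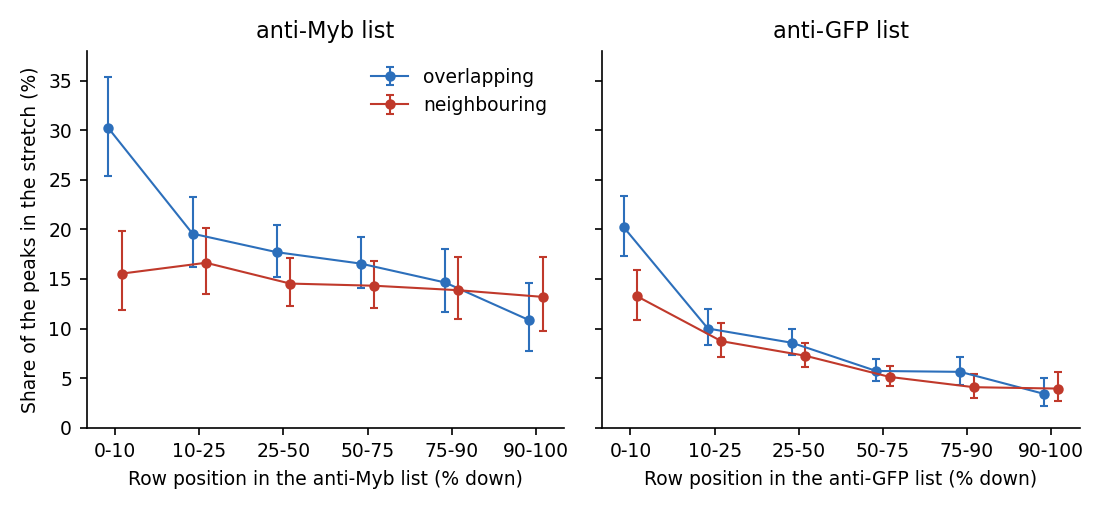
Share of anti-Myb peaks (left) and anti-GFP peaks (right) in 6 stretches of each list, in percent, that overlap a peak of the other list or neighbour one, with exact 95% binomial intervals. In the anti-Myb list the neighbouring share is between 13.2% and 16.6% throughout, while the overlapping share is 30.2% at the start and 10.9% at the end. In the anti-GFP list both are highest at the start.

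The distance within a pair showed no steady rise or fall with the position in either list. The median distance was 484 bp among the earliest 10% of anti-Myb rows and 520 bp among the latest 10%, with values from 471 to 493 bp in between. By the partner's row, the medians were 483 bp in the first 10% and 532 bp in the last 10%, with 474 to 492 bp in between. The last stretches held only 45 and 30 pairs. The share at 400 to 550 bp was 54.7% among the earliest 10% of anti-Myb rows (40.4% to 68.4%) and 48.9% among the latest 10% (33.7% to 64.2%). Across the 500 pairs, Spearman's rho between distance and row position was 0.02 in each list.

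**Figure D4:**
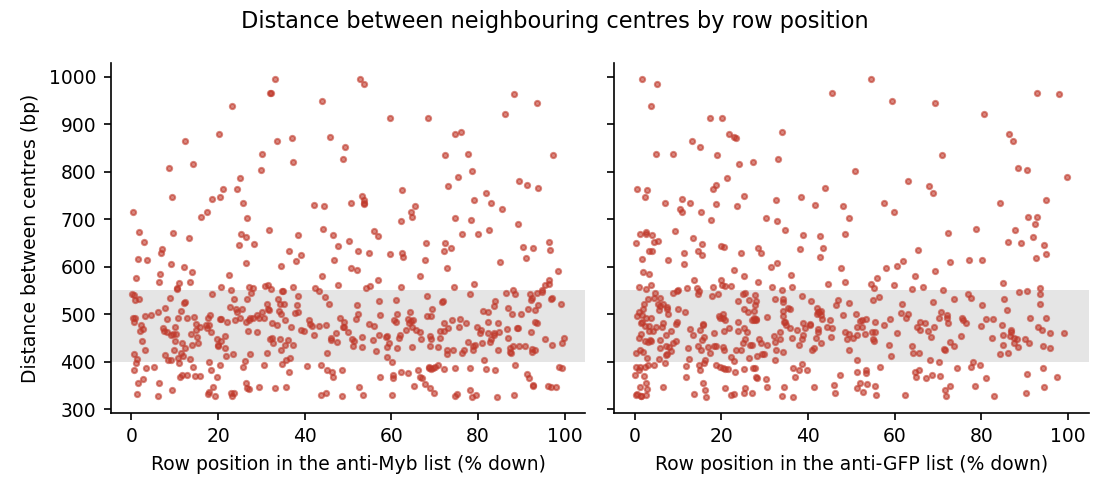
Distance in bp between the centres of each of the 500 neighbouring pairs against the row position of its anti-Myb peak (left) and anti-GFP peak (right), in percent down the list. The band from 400 to 550 bp is shaded; it holds 262 pairs, spread over early and late rows of both lists.

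The surroundings of the members gave values close to those of the overlapping peaks. Another anti-Myb peak had its centre within 10 kb of 104 of the 500 members (20.8%, 17.3% to 24.6%). This count includes, by definition, every member whose partner had a nearer anti-Myb peak. Without those members the share was 17.2% (13.9% to 20.8%). Such a companion was present for 19.3% of overlapping peaks (16.2% to 22.6%). It was present for 17.3% of anti-Myb peaks beyond 10 kb from any anti-GFP centre (15.6% to 19.1%). The anti-Myb peaks 1 to 10 kb from an anti-GFP centre had such a companion in 39.6% (35.2% to 44.1%), an interval that does not overlap that of the members. In that class, an anti-Myb peak nearer to the same anti-GFP centre can also count as a companion. Companions at the same anti-GFP peak were taken out for the members only, so the classes are not compared on equal terms. An anti-GFP peak other than the partner lay within 10 kb of 16.0% of members (12.9% to 19.5%), and one other than the nearest lay within 10 kb of 16.3% of overlapping peaks (13.5% to 19.5%). Within 100 kb the values were 81.4% and 81.5%. For the classes farther away, anti-GFP peaks are limited by the rule itself and were not compared.

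Members were spread over all 20 chromosomes analysed, 1 to 19 and X. The largest number was on chromosome 11, which is rich in genes, with 49 of its 301 anti-Myb peaks (16.3%, 12.3% to 20.9%). The share was highest on chromosome 16, with 24 of 111 (21.6%, 14.4% to 30.4%), and lowest on chromosome 3, with 15 of 169 (8.88%, 5.05% to 14.2%). The interval of chromosome 3 lay below the share of 14.7% over all chromosomes, and those of the other 19 chromosomes included it. Overlapping peaks were 16.0% of the anti-Myb peaks of chromosome 3, against 17.8% overall. On chromosome X only 7 members were found, with a median distance of 765 bp, while the medians of the other chromosomes were between 455 and 513 bp. Chromosomes were singled out after their values were seen.

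**Figure D5:**
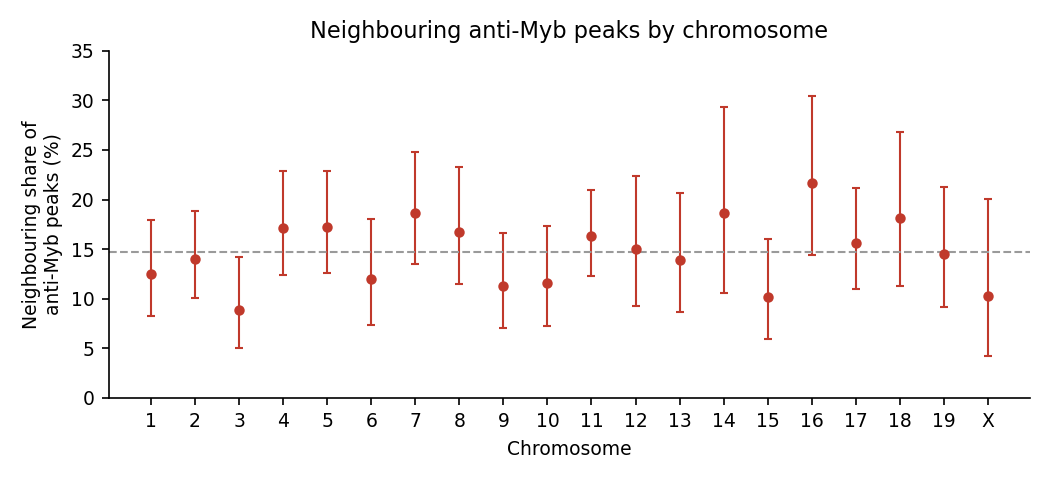
Share of the anti-Myb peaks of each chromosome, in percent, that neighbour an anti-GFP peak, with exact 95% binomial intervals. The dashed line is the share over the whole list, 14.7%, which lies above the interval of chromosome 3 and inside the others.

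The members seldom lay close to each other. In 8 cases 2 adjacent members were within 10 kb of each other, and 6 of these were the peaks on both sides of a single anti-GFP peak described earlier. The other two involved separate partners. On chromosome 4, anti-Myb peaks starting at 117501814 and 117508253 were 6.44 kb apart, with partners at 433 and 554 bp. On chromosome 17, those starting at 34324335 and 34333604 were 9.27 kb apart, with partners at 368 and 545 bp. Within 100 kb there were 46 such cases, of which 6 shared a partner and lay on opposite sides of it. In 22 of the 46, all with separate partners, both members lay on the same side of their partners. By windows of 10 Mb, chromosome 19 from 40 to 50 Mb held the most members, 11 of its 58 anti-Myb peaks (18.97%, 9.87% to 31.4%), an interval that includes the 14.7% of the whole list. On chromosome 5 from 130 to 140 Mb, 10 of 24 anti-Myb peaks were members (41.7%, 22.1% to 63.4%). On chromosome 8 from 80 to 90 Mb, 8 of 23 were (34.8%, 16.4% to 57.3%). These windows were picked from many after their values were seen, and no test was made.

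Ranked by the mean of their positions in the 2 lists, the earliest neighbouring pair was on chromosome 5, where row 18 of the anti-Myb list, at 34915974 to 34916286, lay 484 bp above the centre of anti-GFP row 118, at 34915478 to 34915814. The next, on chromosome 17, paired anti-Myb row 54 at 56901745 to 56902057 with anti-GFP row 128 at 56902350 to 56902686, 617 bp apart. Its anti-GFP peak was also overlapped by another anti-Myb peak, row 266. On chromosome 1, anti-Myb row 104 at 129653223 to 129653535 lay 496 bp above anti-GFP row 41 at 129652715 to 129653051. These 3 pairs were in the first 4% of both lists and at distances both inside and above the most filled range.

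The fourth pair was on chromosome 19, with anti-Myb row 51 at 47062947 to 47063259 and anti-GFP row 193 at 47063290 to 47063626, separated by 30 bp between their edges. On chromosome 18, anti-Myb row 15 at 75649713 to 75650025 and anti-GFP row 281 at 75649210 to 75649546 were 491 bp apart. A second pair on chromosome 1 joined anti-Myb row 62 at 88420727 to 88421039 and anti-GFP row 190 at 88421388 to 88421724, 673 bp apart. On chromosome 2, anti-Myb row 110 at 27919871 to 27920183 ended 100 bp before anti-GFP row 87 at 27920284 to 27920620. The eighth was the chromosome 10 peak between 2 anti-GFP peaks, whose nearest partner was row 303. The last of the 10 were on chromosome 19, with anti-Myb row 85 at 42321883 to 42322195 and a distance of 444 bp, and on chromosome 16, with anti-Myb row 181 at 76003358 to 76003670 and a distance of 389 bp. Of these 10 pairs, 6 were 400 to 550 bp apart, and the anti-Myb peak was on the higher side in 6.

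At the lower limit of the rule, the members nearest to their partner were separated by as little as 1 bp. On chromosome 11 the anti-Myb peak at 70482114 to 70482426 stopped 1 bp short of its partner at 70482428 to 70482764, and on chromosome 18 the gap between 57085108 to 57085420 and its partner was also 1 bp. The next were on chromosomes 19 (44322668 to 44322980) and 4 (117479503 to 117479815), at 327 bp between centres, and on chromosome 17 (71614141 to 71614453), at 328 bp. Just outside, an overlapping pair on chromosome 1 (52511420 to 52511732) shared a single base at 324 bp. The others closest to the limit had distances of 323, 322, 320 and 320 bp, on chromosomes 11, 17, 5 and 6.

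At the upper limit, the farthest members were on chromosomes 2 (153436612 to 153436924) and 18 (80579512 to 80579824), both 995 bp from their partner. Those on chromosomes 10, 14 and 17 were 984, 965 and 965 bp away. The first anti-Myb peaks beyond the limit were at 1010 bp on chromosome 11 (97307386 to 97307698), 1013 bp on chromosome 10, 1021 bp on chromosome 4, 1044 bp on chromosome 1 and 1053 bp on chromosome 3. The upper limit thus fell where few peaks lay, while the lower limit cut through a filled range, with 26 overlapping peaks and 34 members in the bin from 300 to 350 bp.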

How the data were processed

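Peak lists of 2 CUT&RUN libraries from MEL cells, 1 library per group, were analysed. Per the labels' protocols, digitonin opened bead-bound cells and calcium activated the tethered nuclease. The submitters' processing notes name the mm9 build, HOMER 4.10.3, STAR 2.7.9a, deepTools 3.4.2, Picard 2.17.11, Trim Galore 0.6.6 and SAMtools 1.11. Which tool did what, how peaks were thresholded, and whether duplicates were removed or a control was used is not given in the sources used here, though this decides which peaks are listed. The authors' deposited score was 1 throughout, so peaks carry no height, and read depth is unknown.

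Distances between peak centres, classes, shares with exact 95% Clopper-Pearson intervals, and medians with order-statistic intervals were computed with pandas 2.3.3, SciPy 1.17.1 and NumPy 2.4.6 in Python 3.11.15, and plots with Matplotlib 3.10.9. Distances are given in bins of 50 bp. The intervals cover counting of peaks only. Counts of 500 neighbouring and 607 overlapping peaks were checked with bedtools 2.31.1, and the classification was tested on simulated lists. The simulated peaks had the same width in both lists, with at most 1 anti-Myb peak near each anti-GFP peak. No simulated overlap lay right at the edge between overlapping and neighbouring. Unequal widths, such overlaps and shared partners were therefore not tested by simulation. Coordinates are 1-based on mm9. The members and comparisons were chosen with earlier results of these data known. Pairs were named by a rule: the 10 with the earliest mean row position, 5 on each side of each limit, and peaks between 2 anti-GFP peaks if 10 or fewer; 13 were found, so those named were picked after their values were seen. No mm9 sequence or annotation was used here, so planned gene positions, gene lists, motifs and printed sequences were left out.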

Additional observations from a re-analysis of the deposited data

How the results depend on the processing

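Of 24 alternatives, 20 left the value within 1.5 times (counts) or within its 95% interval (shares and medians). Some of these 20 could not come out otherwise. Restricting to chromosomes 1 to 19 and X changed nothing because no member lay elsewhere. Keeping 1 anti-Myb peak per partner could only give the number of partners, 494. Mutual nearest pairs kept 478 of the 500 members. Dropping so few could not take the share at 400 to 550 bp, the share on the lower-coordinate side or the median positions outside their intervals. The number of members was 190 when rows after the first 50% were dropped from both lists (first 50% of each list), which removes partners as well as peaks, and 353 to 593 under upper limits of 550, 700 and 2000 bp. The share of members with another anti-Myb peak within 10 kb, whose 3 alternatives were chosen after seeing the data, was 12.0% with a window of 5 kb, 32.2% with 20 kb and 17.2% with mutual nearest pairs only. A narrower window can only lower this share and a wider one only raise it. Mutual nearest pairs had to give a lower share, because every member dropped has another anti-Myb peak within 10 kb by definition. The share at 400 to 550 bp ranged from 52.4% to 54.7% over the alternatives that kept this range. Ranges of the same width placed slightly higher and slightly lower held 51.6% and 53% of members. The share on the lower-coordinate side ranged from 50% to 50.7%. Median positions stayed between 46.3% and 48.7% in the anti-Myb list and between 33.2% and 34.1% in the anti-GFP list, with running numbers of the peak names in place of rows included. Alternatives for start sites and motifs were not run. No paired analysis was possible because each group had 1 library. Without read counts, a region that is missing from a list may still have held reads.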
